A study of Mus musculus with 8 samples.

Results

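The genes described here are 38 genes of the Myc network and of ribosome biogenesis, chosen by name as the rows that carry their symbols in the tables of all 8 libraries. They were 38 of 22050 genes with an mRNA model. Of these 38, 37 had enough reads to be tested, among 12235 genes tested in all. The libraries came from haematopoietic stem cells (HSCs) of C57BL/6 mice, taken from bone marrow with a sort gate that required CD150 and EPCR and left out CD48+ and lineage-positive cells. The 4 libraries labelled P5 came from pups at postnatal day 5, and the other 4 from mice 4 weeks of age. No treatment and no engineered allele is named for these 8 libraries, and both ages share strain, tissue and sort gate. The design text also speaks of HSCs cultured for 1 day, and no label places any of these libraries among them. Each library was made from 100 sorted cells, so each value is a sum over a small number of cells. The labels do not say which libraries came from separate animals, so p-values cover only the spread among the samples at hand, part of which may be technical.

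Myc is a transcription factor that binds DNA as a dimer with Max, most readily at the sequence CACGTG, called the E-box. The Mxd proteins, Mxi1 and Mnt also pair with Max and repress at such sites, so they oppose Myc. Among the processes best known as Myc targets is the making of ribosomes. RNA polymerase I transcribes the ribosomal RNA precursor in the nucleolus, small nucleolar RNPs modify it, and assembly factors cut, fold and export the subunits. In HSCs, which divide rarely and keep protein synthesis low, Myc is known for its part in the balance between self-renewal and differentiation.

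The RNA of most of these genes differed little between P5 and 4 weeks. Myc itself was lower at P5 by 1.56-fold, and Polr1b, a core subunit of RNA polymerase I, by 1.37-fold. Mxi1, a partner of Max that opposes Myc, was higher at P5 by 1.31-fold. Of 23 members that modify ribosomal RNA or assemble the subunits, none passed edgeR's test or limma-voom in exon reads, DESeq2 called 1 (Ncl), and 4 had an unadjusted p under 0.05 in edgeR. In counts, 1 of the 37 tested members was higher at P5 and 2 were lower, by edgeR's quasi-likelihood test with a Benjamini-Hochberg adjusted p under 0.05. Over all genes tested, 7.99% were higher and 8.55% lower, 16.5% in either direction, against 8.11% of the tested members. An unadjusted p under 0.05 was found for 9 members, or 24.3%, against 29.9% of all genes tested. The ages did not overlap for 3 members, Myc, Polr1b and Taf1d, while 21.2% of all genes tested showed such a separation.

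The spread between libraries was small enough to bound most of these differences. For 30 of the 37 members, the 95% interval of the fold change lay within 1.5-fold in either direction, which held for 56.2% of all genes tested. The 7 members whose interval reached further were Myc, Mxd3, Mxi1, Polr1b, Polr1e, Taf1d and Eif6. The median size of the log2 fold change, sign aside, was 0.09 over the members and 0.20 over all genes tested. Levels are given as CPM, edgeR's normalised exon reads scaled to a common library size, and all 37 tested members had a mean of at least 10 CPM. Of the 9859 tested genes at or above that level, 16.7% were called, and their median size of change was 0.17. The share of intervals within 1.5-fold was not counted at that level, so the 56.2% also covers genes with fewer reads. With the sign kept, the median log2 fold change, P5 over 4 weeks, was -0.05 over the members and near 0 over all genes, and 14 members leaned higher and 23 lower. In bulk libraries such as these, fewer cells of a type and less RNA per cell cannot be told apart.

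**Figure D1:**
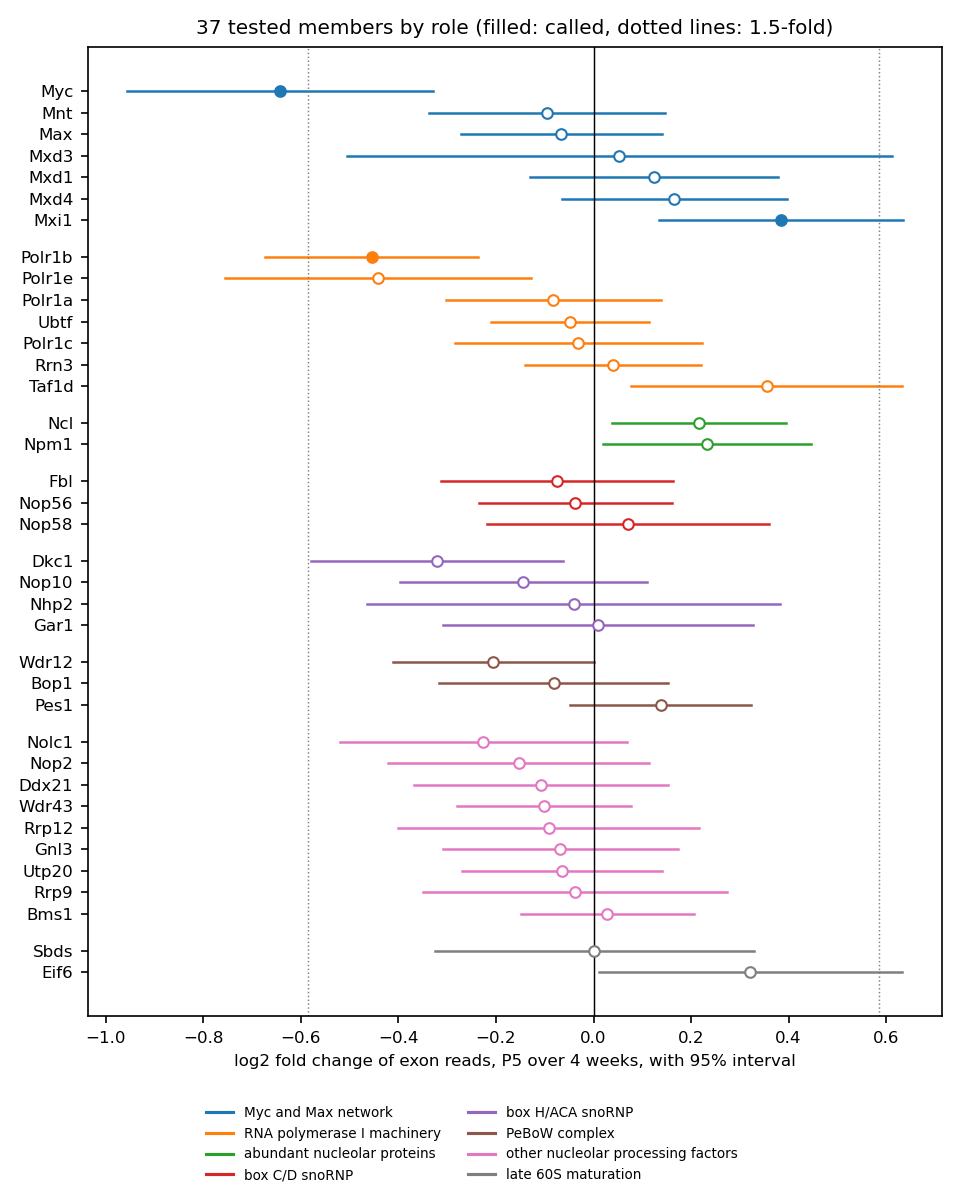
Log2 fold change of exon reads, P5 over 4 weeks, for the 37 tested members, 1 row each, grouped and coloured by role, with points at the estimate and bars for the 95% interval. Filled points mark Myc, Polr1b and Mxi1, which passed the test, and dotted lines mark 1.5-fold, inside which 30 of the 37 intervals lie whole.

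Myc (chromosome 15, 61985341 to 61990361, RefSeq genes on GRCm38.p6 here and below) was measured at 97.2, 65.4, 81.5 and 113 CPM in P5 replicates 1 to 4. At 4 weeks it was measured at 127, 123, 146 and 162 CPM. Each P5 library lay below each 4-week library, with the nearest pair at 113 and 123. The log2 fold change was -0.64 (SE 0.146, adjusted p = 0.00804), with an interval from -0.96 to -0.33. P5 replicate 2 had the least Myc and also the most Mxi1, Mxd1, Mxd4 and Mnt RNA of the P5 libraries. Mxd3 and Max went the other way, with their lowest P5 values in that library, at 7.31 and 54.9 CPM. The sex of the animals was not balanced over the ages: P5 replicates 1 and 3 had at most 2 reads from 5 Y-linked genes, while the other 6 libraries had 1532 to 2293. In those 6 libraries alone the adjusted p for Myc was 0.0605 at a log2 fold change of -0.64, with 2 P5 libraries left, and with Y-linked reads as a covariate it was 0.0486. In the authors' deposited table, the corrected p for Myc was 0.00504.

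Mxi1 (chromosome 19, 53310128 to 53373293) had 80.7, 106, 88.7 and 83.9 CPM at P5. At 4 weeks it had 62.6, 67.7, 82.1 and 62.8 CPM. Replicate 3 at 4 weeks lay above P5 replicate 1, so the ages overlapped. The log2 fold change was 0.38 (SE 0.116, adjusted p = 0.038). This call was lost without any one of 6 libraries, at adjusted p between 0.052 and 0.11: P5 replicate 2, 3 or 4, or 4-week replicate 1, 2 or 4. It was also lost with the replicate number as a block (adjusted p = 0.0644), with Y-linked reads as a covariate (0.0521), in the 6 libraries with such reads (0.0651) and with intron reads added (0.305). In the authors' deposited table the corrected p was 0.135.

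The other members of the network did not pass the test. Max, the shared partner, varied little, with 58.5, 54.9, 56.7 and 59.6 CPM at P5. At 4 weeks it had 54.4, 59.5, 62.9 and 63.7 CPM, a log2 fold change of -0.07 (interval -0.27 to 0.14). Mxd1, a repressor linked to differentiation, had 69.3, 87.5, 69.98 and 69.2 CPM at P5 and 62.7, 58.6, 79.1 and 70.9 CPM at 4 weeks. Apart from P5 replicate 2, all its P5 values fell inside the 4-week range. Mxd4, another repressor of the family, had 146, 156, 139 and 118 CPM at P5 and 125.5, 103, 136 and 133 CPM at 4 weeks. Its log2 fold change was 0.17 (interval -0.07 to 0.40), with the ages overlapping. Mnt, the broadly expressed repressor, had 62.4, 70.4, 57.9 and 62.8 CPM at P5 and 81.2, 61.5, 65.6 and 62.3 CPM at 4 weeks. The 4-week value of 81.2 stood above all others, and the log2 fold change was -0.09 (interval -0.34 to 0.15).

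Mxd3, the family member known from dividing cells, had few reads. It had 12.5, 7.31, 12.6 and 10.9 CPM at P5 and 10.9, 14.7, 6.73 and 9.56 CPM at 4 weeks, and the ages overlapped throughout. Its log2 fold change of 0.05 carried an interval from -0.51 to 0.61, and the sign turned under several alternatives. Mycl was represented by 2 exon reads over the 8 libraries, 1 at each age, and was not tested. Relative to exon length, Myc stood highest of the members in the network, at a mean of 47.7 CPM per kb over the 8 libraries. Its paralog Mycn is not a member and was not ranked here. Mxd4 followed at 33.7 and Max at 24.1 CPM per kb, and Mxd1, Mxi1 and Mnt lay between 10.1 and 10.2 CPM per kb.

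The promoters were read for the E-box that Myc and Max dimers are known to bind, to show where members carry it. RefSeq promoters on GRCm38.p6 were taken from 250 bases before to 50 after a start site. They were found for 31 of the 38 members, with Mxi1 and Polr1b among them, but not for Myc. The letters CACGTG read the same on both strands, so 1 search covers both. They occurred in 8 of the 31, or 25.8%, against 11.7% of 9293 tested genes and 8.09% of all 27025 genes in the promoter table, each window being 300 bases long. The 8 were Max, Mnt, Mxd4, Rrn3, Nop2, Pes1, Utp20 and Wdr43, none of which passed the exon test, which 16.5% of all genes tested did. Windows of 30 bases are shown for the 3 in the network and for Rrn3 and Nop2, with the E-box in capitals. Distances were counted from the start site of the promoter, which in Max and Mnt lies inside the gene. The RefSeq gene begins at 76962323 in Max, on the minus strand, and at 74830806 in Mnt. The E-box began 3 bases before the start in Max (chr12:76962234-76962263, minus strand), 123 before it in Mnt (chr11:74830789-74830818, plus strand) and 219 before it in Mxd4 (chr5:34187912-34187941, minus strand). Rrn3 held 2, beginning 215 and 48 bases before the start (chr16:13780472-13780501 and chr16:13780639-13780668, plus strand). In Nop2 it began 60 bases before the start (chr6:125131811-125131840, plus strand).
Max: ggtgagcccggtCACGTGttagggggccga
Mnt: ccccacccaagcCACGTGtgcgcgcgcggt
Mxd4: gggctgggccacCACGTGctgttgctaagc
Rrn3, farther: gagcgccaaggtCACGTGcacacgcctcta
Rrn3, nearer: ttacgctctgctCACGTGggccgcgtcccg
Nop2: gtgtccctggatCACGTGtgttccggtgcc

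These windows share the 6 letters in capitals, and the flanks were not compared. A match describes the sequence only, since binding was not measured in these libraries. Their log2 fold changes ran from -0.15 in Nop2 to 0.17 in Mxd4.

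The RNA polymerase I machinery had 7 members, of which 1 was lower at P5, none was higher and 3 had an unadjusted p under 0.05. Polr1b (chromosome 2, 129100970 to 129128060) encodes the subunit that forms the catalytic centre with Polr1a. It had 85.2, 87.7, 94.7 and 114 CPM at P5 and 132, 144, 123 and 124 CPM at 4 weeks. The ages did not overlap, with 114 and 123 as the nearest values. The log2 fold change was -0.46 (SE 0.101, adjusted p = 0.0072, interval -0.67 to -0.24). Its call was lost with Y-linked reads as a covariate (adjusted p = 0.0782), in the 6 libraries with such reads (0.0874) and with intron reads added (0.059). In the authors' deposited table its corrected p was 0.0157, and it and Myc were the 2 members under 0.05 there, while 27 members were listed at 1.

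Polr1e, the subunit also known as PAF53, had 26.5, 19.6, 20.7 and 18.6 CPM at P5 and 29.1, 29.6, 25.6 and 31.7 CPM at 4 weeks. P5 replicate 1 lay inside the 4-week range and the other P5 libraries below it. The log2 fold change was -0.44 (SE 0.146, adjusted p = 0.0544), just short of a call. Polr1e was called lower, at -0.60 in log2, with Y-linked reads as a covariate (adjusted p = 0.0455) and in the 6 libraries with such reads (0.044), where no other member was called. It was also called without P5 replicate 1 (0.0179) and with intron reads added (0.00587). Taf1d, a subunit of the promoter selectivity factor SL1, had 46.9, 48.8, 48.5 and 59.1 CPM at P5 and 44.7, 32.2, 38.7 and 43.1 CPM at 4 weeks. Each P5 library lay above each 4-week library, yet the log2 fold change of 0.36 (SE 0.129) had an adjusted p of 0.0785. Taf1d exons in GENCODE M21, 8949 bases in all, hold small nucleolar RNA genes. They overlap exons of the opposite-strand genes Cep295 and 4931406C07Rik by 77 and 235 bases. With a kit that does not mark strand, reads over such overlaps could not be assigned to one gene. The exon model behind the counts had 2063 bases, and whether these stretches lie within it was not checked.

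The remaining members of the machinery had mean values close together at the ages. Polr1a, the largest subunit, had a log2 fold change of -0.08. Polr1c, shared with RNA polymerase III, had -0.03, Ubtf, which keeps ribosomal DNA open, had -0.05, and Rrn3, which makes the polymerase able to initiate, had 0.04. Their intervals all lay within 1.5-fold. Summed over the 7 genes, the machinery stood at 604 ± 41.5 CPM at P5 and 649 ± 25.4 CPM at 4 weeks (SD, n = 4 each), with P5 libraries from 562 to 651 and 4-week libraries from 612.5 to 672.

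**Figure D2:**
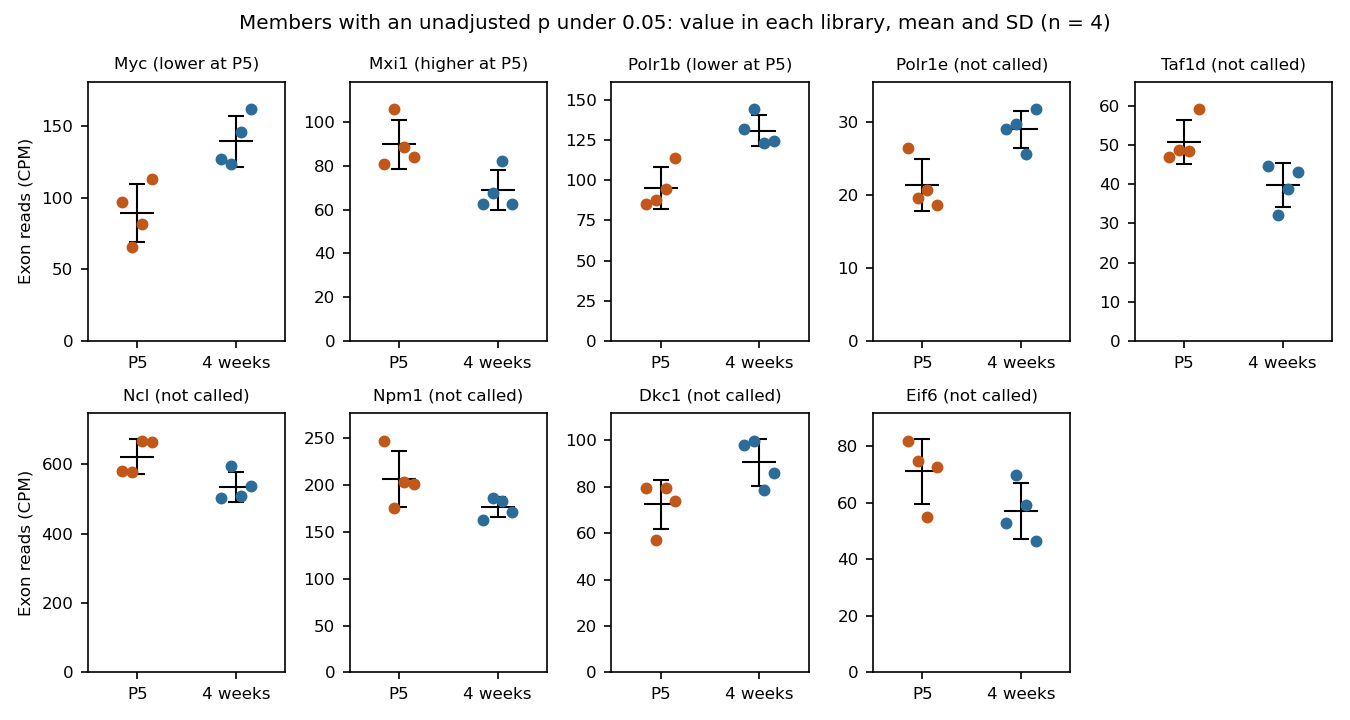
Exon reads (CPM) in each library for the 9 members with an unadjusted p under 0.05, P5 on the left and 4 weeks on the right of each panel, with the mean and SD of 4 libraries. The ages do not overlap for Myc, Polr1b and Taf1d, while Mxi1 passed the test with 4-week replicate 3, at 82.1 CPM, inside the P5 range.

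The abundant nucleolar proteins leaned higher at P5 without passing the test. Ncl, nucleolin, had 579.8, 577, 668 and 663 CPM at P5 and 502, 594.5, 508 and 536 CPM at 4 weeks. Replicate 2 at 4 weeks lay above P5 replicates 1 and 2. The log2 fold change was 0.22 (SE 0.0826, adjusted p = 0.0934), and it was called by DESeq2, without 4-week replicate 2 and with intron reads added. Npm1, nucleophosmin, had 247, 175, 204 and 201.5 CPM at P5 and 163, 187, 183 and 172 CPM at 4 weeks. Its log2 fold change was 0.23 (SE 0.0989, adjusted p = 0.132), and P5 replicate 2 lay inside the 4-week range. It was called higher without that library and with intron reads added. Of Npm1 exon reads, 45.3% mapped uniquely, so copies of the gene elsewhere in the genome may share reads with it.

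Members that guide RNA modification did not pass the test. The box C/D proteins Nop56, Nop58 and Fbl, the methyltransferase fibrillarin, had log2 fold changes of -0.04, 0.07 and -0.07. Only 10.5% of Fbl exon reads and 62.8% of Nop56 exon reads mapped uniquely. With uniquely mapped reads alone, the log2 fold change of Fbl turned to 0.20 and was not called. Among the box H/ACA proteins, Dkc1, the pseudouridine synthase dyskerin, had 79.6, 57.0, 79.4 and 73.9 CPM at P5 and 98.1, 99.8, 78.4 and 85.9 CPM at 4 weeks. Its log2 fold change was -0.32 (SE 0.12, adjusted p = 0.088), and P5 replicates 1 and 3 lay above 4-week replicate 3. Dkc1 lies on chromosome X. With Y-linked reads as a covariate its log2 fold change was larger, at -0.47, and just short of a call (adjusted p = 0.0509). In the 6 libraries alone it was also -0.47 and not called (adjusted p = 0.0675). Its partners Nop10, Nhp2 and Gar1 had log2 fold changes of -0.14, -0.04 and 0.01.

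The PeBoW complex, which matures the RNA of the large subunit, showed no common shift. Wdr12 had a log2 fold change of -0.21 (interval -0.41 to 0.0004), Bop1 of -0.08 and Pes1 of 0.14. Of the 9 other processing factors, 8 leaned lower at P5 and none passed the test, with log2 fold changes from -0.23 in Nolc1 to 0.03 in Bms1. The 9 include the small subunit factors Rrp9, Rrp12, Utp20, Bms1 and Wdr43, and the methyltransferase Nop2. The nucleolar GTPase Gnl3, the chaperone Nolc1 and the helicase Ddx21 complete them. All 9 intervals lay within 1.5-fold. Late in large subunit maturation, Eif6, which keeps the subunits apart, had 81.9, 74.8, 55.0 and 72.8 CPM at P5 and 52.8, 69.8, 59.1 and 46.5 CPM at 4 weeks. Its ages overlapped, and its log2 fold change was 0.32 (SE 0.144, adjusted p = 0.152), called only without 4-week replicate 2. Sbds, which releases Eif6 from the subunit, had a log2 fold change of 0.0012 (interval -0.33 to 0.33).

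Relative to exon length, levels differed widely among the ribosome biogenesis members. Npm1 had a mean of 112 CPM per kb over the 8 libraries, Fbl 99.5, Nop10 94.3, Ncl 66.4 and Nop56 62.5. Polr1e was lowest of these members at 6.82 CPM per kb, and Rrp12 followed at 13.4. Mapping to several places bears on the levels of Fbl, Npm1 and Nop56.

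Single libraries were the lowest or highest of their age for many of these genes. Such ranks were not counted over all genes tested, so they are not shown to be particular to the members. Over the 30 members outside the Myc and Max network, P5 replicate 2 was the lowest P5 library for 20 and the highest for none, and P5 replicate 1 was the highest for 14. At 4 weeks, replicate 2 was the highest for 17 and replicate 3 the lowest for 17. Their summed exon reads were 3223, 2779, 3081 and 3298 CPM at P5 and 2992, 3363, 2929 and 3111 CPM at 4 weeks. The means were 3095 ± 229 and 3099 ± 192 CPM (SD, n = 4 each), so the spread within an age was far wider than the distance between the means. Genes of cell division were summed in the same libraries. Summed over 19 such genes, P5 replicates 1 to 4 had 3873, 2284, 3408 and 3520 CPM, and 4-week replicates had 2683, 4014, 2567 and 2531 CPM. Within its age, P5 replicate 2 was lowest in both sums, and 4-week replicate 2 was highest in both. The other ends differed. P5 replicate 4 had the highest member sum and P5 replicate 1 the highest cell division sum. At 4 weeks, replicate 3 had the lowest member sum and replicate 4 the lowest cell division sum. The part of dividing cells in the members' values was not tested.

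**Figure D3:**
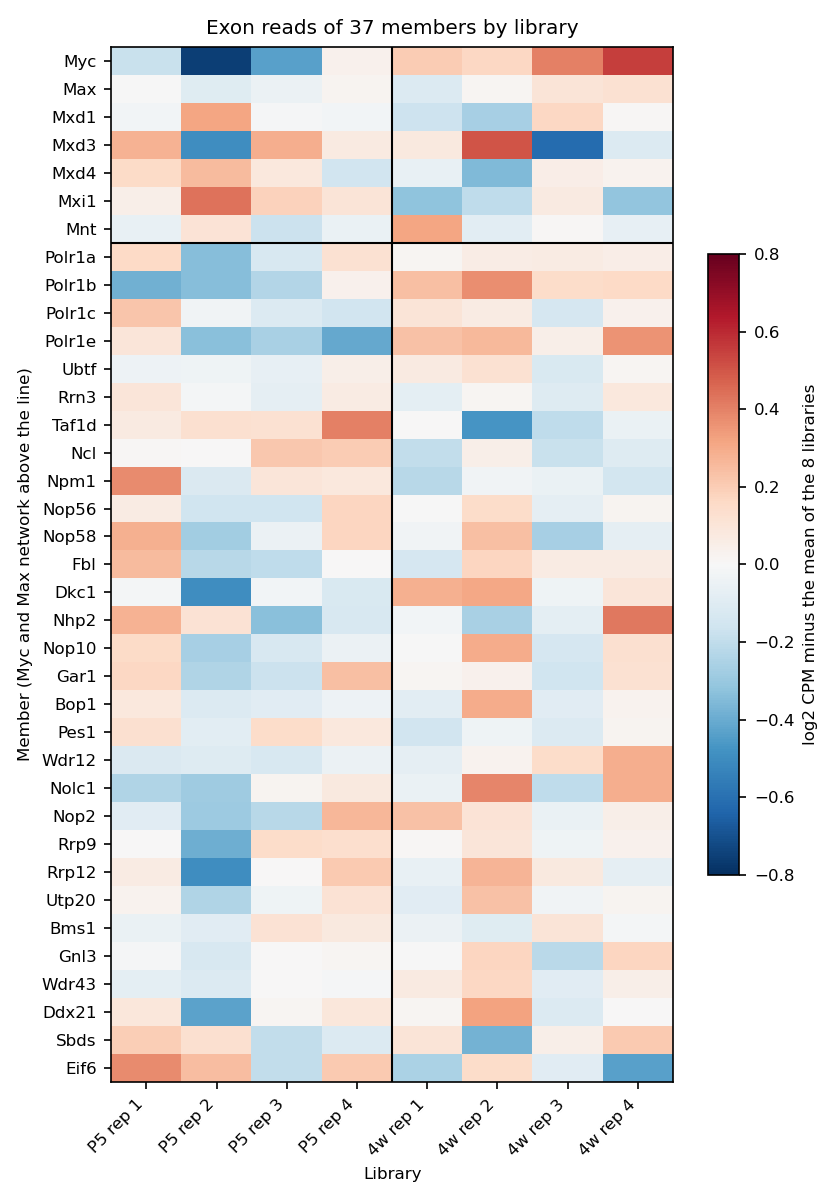
Exon reads of the 37 tested members (rows) in the 8 libraries (columns), coloured by log2 CPM minus the member's mean over the libraries, red for above and blue for below. The column of P5 replicate 2 is mostly blue below the horizontal line, where it was the lowest P5 library for 20 of 30 members, and the column of 4-week replicate 2 mostly red.

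Reads over introns gave a further readout of the same genes in the same libraries, in which reads from unspliced RNA are counted. Introns took 60.1% of reads of genes with an mRNA model in P5 replicate 1 and 66.8% to 68.7% in the other 7 libraries. Of 36 members tested by the same test on intron reads, 3 were higher at P5 and 2 lower. Over the 13180 genes tested this way, 9.01% were higher and 8.86% lower. The 3 higher members were Ddx21, Npm1 and Mxd3, and the 2 lower ones were Myc and Polr1e. Exon and intron fold changes had the same sign in 20 of the 36 members.

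Myc intron reads had 6.04, 7.53, 4.71 and 8.80 CPM, scaled here to intron reads, at P5 and 12.4, 10.2, 12.4 and 20.1 CPM at 4 weeks. The ages did not overlap, as in its exon reads. The log2 fold change was -1.02 (SE 0.265, adjusted p = 0.0202), lost without P5 replicate 3 or 4-week replicate 4 and with either setting for Y-linked reads. Polr1e intron reads had 6.70, 7.22, 8.89 and 9.22 CPM at P5 and 15.3, 13.0, 15.5 and 15.5 CPM at 4 weeks. They also did not overlap, and the difference was -0.89 in log2 (SE 0.182, adjusted p = 0.00624). That call held in all 13 alternatives run on intron reads.

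Ddx21, an RNA helicase that acts in both ribosomal RNA transcription and processing, differed between its exons and introns. Its intron reads had 70.5, 56.4, 77.7 and 68.1 CPM at P5 and 41.8, 41.8, 40.03 and 36.3 CPM at 4 weeks. The ages stood well apart, by 0.77 in log2 (SE 0.125, adjusted p = 0.00161). Its exon reads had 206, 144, 195 and 206 CPM at P5 and 196, 242, 179 and 194 CPM at 4 weeks, which overlapped, with a log2 fold change of -0.11. The age difference of intron reads exceeded that of exon reads by 0.88 on the log2 scale (SE 0.119, adjusted p = 0.000409, edgeR with library as a block). Of 36 members tested for that difference, 3 passed, Ddx21, Mxd3 and Nop56, where 6.4% of 11399 genes did.

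Mxd3 intron reads had 2.93, 4.30, 5.83 and 3.44 CPM at P5 and 0.50, 1.86, 0.75 and 0.88 CPM at 4 weeks. They rested on 268 reads over the 8 libraries. The ages did not overlap, and the log2 fold change was 2.05 (SE 0.431, adjusted p = 0.0071), against 0.05 in exon reads. The difference between them was 2.03 (SE 0.427, adjusted p = 0.00846). The difference for Ddx21 and for Mxd3 held in all 9 alternatives run on it. Mxd3 exons in GENCODE M21, 2369 bases in all, overlap those of Prelid1, on the opposite strand, by 105 bases. The exon model behind the counts had 1299 bases, and whether the overlap lies within it was not checked.

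Nop56 differed by 0.43 between intron and exon reads (SE 0.124, adjusted p = 0.0464), with an intron log2 fold change of 0.39 that was not called by itself. This call held in only 2 of the 9 alternatives. Npm1 intron reads had 77.2, 72.1, 84.2 and 68.4 CPM at P5 and 58.2, 58.6, 53.1 and 52.7 CPM at 4 weeks. All P5 libraries lay above all 4-week libraries, by 0.44 in log2 (SE 0.108, adjusted p = 0.0156), and the difference from its exon reads did not pass the test. The Npm1 call was lost without P5 replicate 3 or 4-week replicate 4 and with either setting for Y-linked reads. Rrn3, Bop1 and Ncl intron reads did not overlap between ages and were not called, with adjusted p between 0.0501 and 0.0549. They leaned lower at P5 for Rrn3 and Bop1 and higher for Ncl. How often intron reads of all genes separate the ages was not counted.

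**Figure D4:**
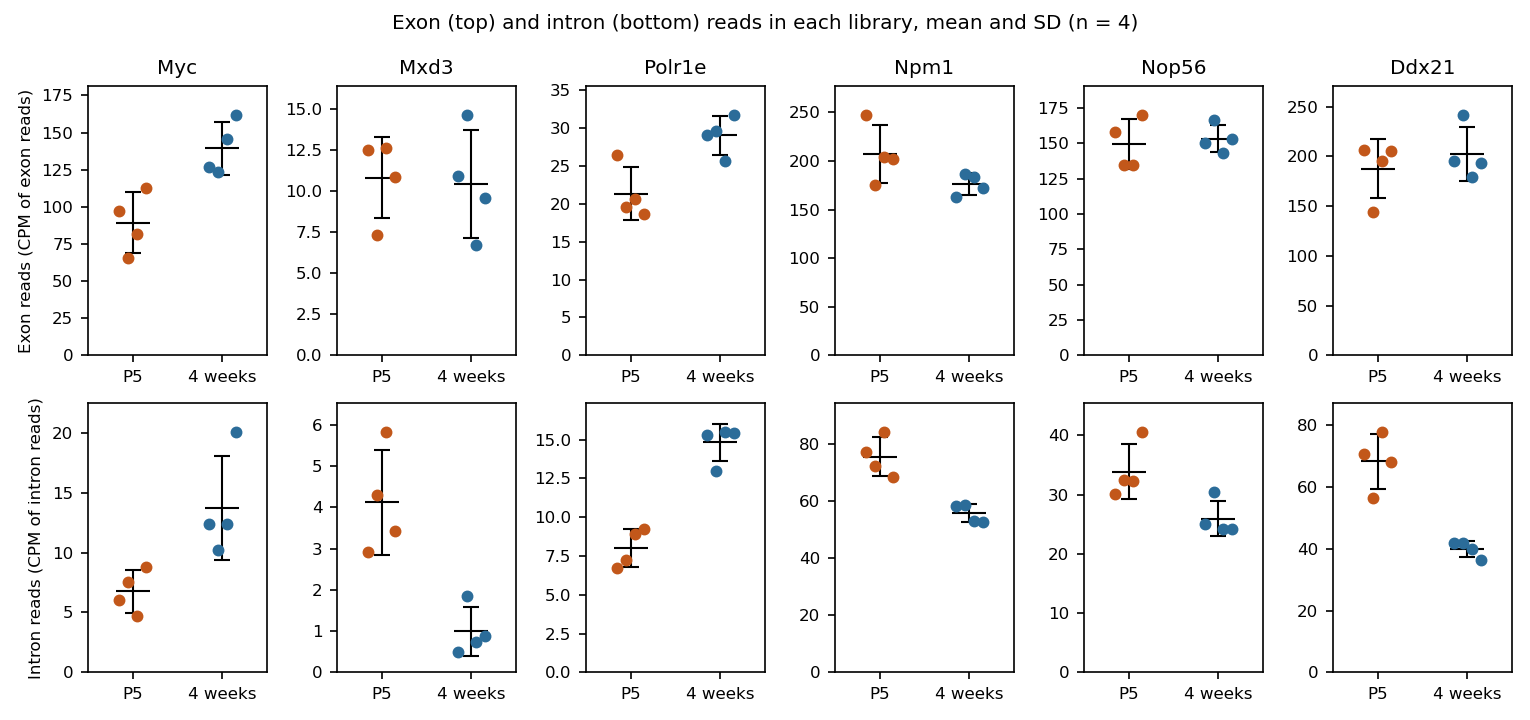
Exon reads (top, CPM of exon reads) and intron reads (bottom, CPM of intron reads) in each library for the 6 members called by intron reads or by the difference between both, with the mean and SD of 4 libraries. For Ddx21 and Mxd3 the ages overlap in the top row and stand apart in the bottom row, while Myc is lower at P5 in both.

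Other genes of the same pathways, taken from lists fixed by name, also mostly missed the test, as did most of all genes tested. Over all genes tested, edgeR called 7.99% higher and 8.55% lower, and 29.9% had an unadjusted p under 0.05. Of 15 further genes of RNA polymerase I and ribosomal DNA, 1 was lower at P5 and none higher, with a median log2 fold change of -0.09. The lower one was Sirt7, a deacylase of the nucleolus, with 48.6 ± 0.571 CPM at P5 (SD, n = 4) and 64.5 ± 6.77 in the older mice (n = 4), or -0.41 in log2 (adjusted p = 0.0152). Ttf1, the transcription terminator of RNA polymerase I, followed at -0.36 (adjusted p = 0.0929). Of 48 large subunit assembly genes, edgeR called 1 higher and 2 lower, with a median of -0.06. DESeq2 called 1 higher and 4 lower, and limma-voom 1 higher and 3 lower. Mdn1, the AAA ATPase midasin that strips factors from the precursor, stood at 365 ± 56.2 CPM in P5 libraries (SD, n = 4) and 538 ± 8.46 in 4-week libraries (n = 4), or -0.56 in log2 (adjusted p = 0.00145). Nsa2 was higher, at 0.47 (adjusted p = 0.0187), and the helicase Ddx55, named as the third edgeR call, lower at -0.40 (adjusted p = 0.0487).

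Among 44 genes of the small subunit processome, edgeR, DESeq2 and limma-voom called none, and 4 had an unadjusted p under 0.05 in edgeR. Over all genes, DESeq2 called 1159 higher and 1154 lower of 14116, and limma-voom 952 and 1077 of 12235. Utp23 and Utp6 had the smallest p-values, with log2 fold changes of -0.47 and -0.23. Of the other Max and Mlx partners, 4 were tested and none was called by the same 3 tools, with 1 unadjusted p under 0.05. That was Mlx, with 19.8 ± 1.67 CPM at P5 (SD, n = 4) and 27.3 ± 5.41 in the older mice (n = 4), or -0.46 in log2 (adjusted p = 0.072), and Mga, a large Max partner, had -0.16. Of 13 Myc cofactors and turnover genes, none was called by any of the 3 tools and none had an unadjusted p under 0.05. Trrap, the scaffold of histone acetyltransferase complexes, and Zbtb17, the Myc partner Miz-1, had log2 fold changes of 0.14 and 0.12.

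Of 24 growth genes known as Myc targets, edgeR called none, with 5 unadjusted p under 0.05, DESeq2 called 2 higher and limma-voom none. Their median log2 fold change was 0.07, with 13 leaning higher and 11 lower. The nucleoside diphosphate kinase Nme2 had 0.41 (adjusted p = 0.0595) and the chaperone Hsp90ab1 had 0.27 (adjusted p = 0.0783). Of the 19 cell division genes, edgeR called none, with 2 unadjusted p under 0.05, and DESeq2 called 1 higher and limma-voom none. By sign 16 leaned higher at P5. The mitotic kinase Cdk1 stood at 0.65 in log2 (adjusted p = 0.0698) and its partner cyclin Ccnb1 had 0.94 (adjusted p = 0.0944).

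Exon reads per library ranged from 5775130 to 7470777, and 14356 to 14802 genes had at least 1 read. Markers of the sorted cells were present: Hlf, a regulator of HSCs, averaged 1404 ± 92.7 CPM over P5 libraries (SD, n = 4) and 1252 ± 116 over 4-week libraries (n = 4). Of 9 tested HSC markers, 2 were higher and 1 lower at P5. Several markers of other cells moved with age. The 9 erythroid markers summed to 584 to 921 CPM at P5 and 94.8 to 161 at 4 weeks, nearly all from the globin Hbb-bt at P5, and Alas2 had no read. The 10 neutrophil and myeloid markers summed to 239 to 320 CPM at P5 and 186 to 219 at 4 weeks, most of it Lyz2, and Ctsg had no read. Of 6 tested, edgeR called 3 higher, Itgam among them at a mean of 59.9 against 13.1 CPM, and 1 lower, S100a8. Lyz2 was not called. The 7 megakaryocyte markers, led by Vwf, summed to 310 to 419 and 439 to 568 CPM. They did not move as one: of 6 tested, 1 was higher (Gp9) and 2 lower (Itga2b and Itgb3), and Vwf was not called. The 7 endothelial markers, led by Tek and Pecam1, summed to 303 to 392 and 232 to 297 CPM. Of 6 tested, all leaned higher at P5, and edgeR called 2 higher (Tek and Cdh5) and none lower. Cdh5 had a mean of 10.8 CPM at P5 against 0.0421 at 4 weeks, and Pecam1 was not called. B cell markers summed to at most 51.7 CPM, T and NK cell markers to at most 31.7, and stromal markers to at most 85.3 in any library. Pax5 and Ms4a1 of the B cell list, and Cd3e, Cd3g and Gzma of the T and NK cell list, had no read. The part of such cells in the differences of Myc, Mxi1 and Polr1b was not tested.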

How the data were processed

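RNA of 100 sorted HSCs per library was made into cDNA and Nextera XT libraries and sequenced, per the labels' protocols and design text. For 48835 gene rows, the authors deposited counts, not normalised, of uniquely mapped and of total reads on exons and on genes. In 1 file they also deposited the corrected p-values of their own test of the ages, named EDGE per the file headers. Reads were placed on mm10, per the submitters' processing notes. For the aligner, counting program and gene models, the names are not given in the sources used. No molecular identifiers are named.

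Total exon reads of 22050 genes with an mRNA model were used, with copies on several contigs summed for 969 genes. The table of P5 replicate 4 lists dates in place of 24 gene names, which were taken from the row order of the other tables. Intron reads were gene reads minus exon reads. edgeR 4.0.16 in R 4.3.3 was run on the counts with TMM scaling, filterByExpr, quasi-likelihood fits and age alone as the term, over all 8 libraries. Benjamini-Hochberg values were taken over the 12235 genes passing the filter, with 99.82% of exon reads among them. Standard errors were derived from the F statistic. The common biological coefficient of variation was 0.152. The fits were tested on simulated data. Positions and promoters came from RefSeq tables on GRCm38.p6. Of 35802 genes compared, 93.5% lay within 1000 bases of a constant offset from the positions in the files. Exon overlaps came from GENCODE M21.

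All members were named. Those with an adjusted or unadjusted p under 0.05, or in the Myc and Max network, were given by library. Of each other list the 2 genes with the smallest p and of marker lists the most abundant were named. The members and lists were chosen with earlier results of these data known. Members' exon results were also computed with a replicate block, without each library in turn, with other filters and scalings, DESeq2 1.42.0, limma-voom (limma 3.58.1), a required log2 fold change of at least 1, other ways of counting reads, and 2 settings for Y-linked reads (over 100 reads). The other lists were also tested with DESeq2 and limma-voom alone. Intron results had no filter or scaling alternative, and the exon against intron test was repeated only without each library and in libraries with Y-linked reads. That test, the alternatives on intron reads and the background at 10 CPM were chosen after seeing the data. Figures used matplotlib 3.10.9 in Python 3.11.15.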

Additional observations from a re-analysis of the deposited data

Results flagged for a closer look

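In groups of 4 libraries, a library was looked at again where its gap to the nearest other library took up more of the group's range than Dixon's 95% critical value allows, as chance does in about 1 of 20 groups. Over the 37 members in exon reads and 36 in intron reads, 9 of 146 groups met this. In exon reads, Mxd1 stood at 87.5 CPM in P5 replicate 2, with the other P5 libraries between 69.2 and 69.98. Taf1d stood at 59.1 CPM in P5 replicate 4, with the others between 46.9 and 48.8.

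In intron reads, P5 replicate 2 stood apart for 3 members: Mxd1 at 44.4 CPM against 29.4 to 31.7, Mxd4 at 36.9 against 22.5 to 24.4, and Utp20 at 76.1 against 88.7 to 90.9. P5 replicate 1 stood apart for Wdr12, at 31.8 CPM against 25.95 to 26.8. At 4 weeks, replicate 2 stood apart for 3 members: Polr1e at 13.0 CPM against 15.3 to 15.5, Taf1d at 142 against 119 to 121, and Nop56 at 30.4 against 24.1 to 25.0.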

How the results depend on the processing

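Of 740 log2 fold changes of members over 20 alternatives, 668 kept their direction and their side of the threshold, 14 lost and 10 gained a call, and 48, in 21 members, changed sign, none of them called. The calls of Myc held in all but the 6 libraries with Y-linked reads and the rule of a log2 fold change of at least 1. Members higher at P5 numbered 0 with the replicate number as a block, with Y-linked reads as a covariate, in the libraries with such reads and at a log2 fold change of at least 1, and 2 with DESeq2 and with exon plus intron reads. They ranged from 0 to 2 when single libraries were left out, and members lower from 2 to 3. Members lower numbered 1 in the libraries with Y-linked reads and 0 at a log2 fold change of at least 1.

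Over all genes, calls higher and lower were 577 and 723 with the block, against 977 and 1046 without it. They were 323 and 349 at a log2 fold change of at least 1, 628 and 608 with the Y-linked covariate, and 619 and 638 in the libraries with Y-linked reads. Without single libraries they ranged from 702 to 985 and from 795 to 1069. Same-numbered libraries did not deviate together over the genes (correlations -0.24 to -0.03, none the best match). Whether they share a batch or litter was not tested. The replicate block changed no other call of a member. In intron reads, members higher numbered 5 with DESeq2, and members lower 4 with DESeq2 and limma-voom and 1 with either setting for Y-linked reads. Without single libraries they ranged from 2 to 4 and from 1 to 3, and members whose intron and exon differences differed from 2 to 4.

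Sign changes with exon plus intron reads gave log2 fold changes of 0.20 for Max, -0.0729 for Mxd1, 0.19 for Polr1c, 0.0339 for Ubtf, -0.12 for Rrn3, 0.14 for Nop56, -0.0831 for Nop58, 0.0321 for Fbl, 0.0792 for Nhp2, -0.0514 for Gar1, 0.040 for Utp20, 0.0175 for Wdr43 and 0.24 for Ddx21. Uniquely mapped reads gave 0.20 for Fbl, -0.0848 for Mxd3 and -0.0111 for Sbds. The Y-linked covariate and the libraries with Y-linked reads each gave -0.20 for Mxd3, and -0.0139 and -0.0136 for Nop58, and the replicate block gave -0.0005 for Gar1. Without single libraries the ranges crossed 0 for Mxd3 (-0.11 to 0.27), Mnt (-0.15 to 0.0033), Polr1a (-0.15 to 0.0069), Polr1c (-0.12 to 0.0151), Nop56 (-0.11 to 0.0185), Nop58 (-0.0147 to 0.18), Nhp2 (-0.15 to 0.12), Gar1 (-0.0764 to 0.0845), Bop1 (-0.13 to 0.0249), Rrp9 (-0.0926 to 0.0671), Rrp12 (-0.18 to 0.0337), Utp20 (-0.12 to 0.019), Bms1 (-0.0061 to 0.0664), Ddx21 (-0.16 to 0.0008) and Sbds (-0.0946 to 0.0759). The cause was not tested. Depth limits Mxd3, Polr1e, Nhp2, Rrp9 and Gar1, tested members with 557 to 1317 exon reads in all.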

Other observations

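Mycn, the paralog of Myc and a member of the list of other Max and Mlx partners, was also measured, and is named here after its values were seen. It stood at 264 ± 26.8 CPM in P5 libraries (SD, n = 4) and 288 ± 24.6 in 4-week libraries (n = 4), or -0.12 in log2 (SE 0.0905, edgeR adjusted p = 0.40). Myc had fewer reads, at 89.3 ± 20.4 and 139.5 ± 17.9 CPM, not scaled to exon length. Srm, spermidine synthase and a growth gene known as a Myc target, likewise named after its values were seen, stood at 81.2 ± 16.2 CPM in P5 libraries (SD, n = 4) and 107 ± 22.7 in 4-week libraries (n = 4), or -0.39 in log2 (edgeR adjusted p = 0.117).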
